A study of Mus musculus with 2 samples.

Results

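Long reads of mouse skeletal muscle held 251 internal exons, in 186 annotated genes, that overlapped no annotated exon of their gene. Each was an exon between the first and the last of a transcript model, in a spliced model that used either an unlisted combination of splice sites (NIC) or at least 1 unlisted splice site (NNC). An exon was kept where it had at least 5 reads over both libraries and at least 1 read in each. Without a minimum of reads there were 3549 such exons, and 2572 of them (72.5%) rested on 1 read. The 251 exons stood among 33872 internal exons of NIC and NNC models with the same minimum. All spliced models of annotated genes had 138096 internal exons, counted with no minimum of reads. Although NIC models by definition join listed sites, 177 of the 251 exons had reads in NIC models. For 82 of the 251 most reads were in NIC models. No source used here gives the list of splice sites behind these classes. The reads with the exon chose the members, so their number and the inclusion built on it are given as a description.

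The samples were 2 libraries of total RNA (2 µg each) from gastrocnemius, a calf muscle made mostly of fast fibres. The mice were females of strain B6CASTF1/J, the F1 hybrid of C57BL/6J and CAST/EiJ, at 14 days of age, with no treatment. The labels name several females for the biosample of replicate 1 and 1 female for that of replicate 2, and give both the same donor identifier, so the 2 libraries may share a source and spread between them may be technical. There was 1 group and no contrast. The tables held 1316937 and 1204188 reads, of which 239837 and 95203 lay in NIC and NNC models of annotated genes. Models averaged 2284 bases a read in the first library and 1484 in the second. Summed over the 251 exons, replicate 1 had 6822 reads and replicate 2 had 2853. A read with several of the exons counts for each of them, and the chains with at least 1 of them had 4940 and 2352 reads. The 6 skeletal muscle markers lay between 1315 and 115580 CPM (reads scaled to a common library size) in both libraries, whereas the heart markers Nppa and Myl7 and the liver markers Alb, Apoa1 and Ttr had 0 reads. Myh6, a heart myosin, had 9 and 2 reads. The fibroblast markers Col1a1, Col3a1 and Dcn lay between 314 and 3844 CPM and the red blood cell markers Hba-a1 and Hbb-bs between 368 and 894 CPM, while Tnni3 of heart and the neuron markers Snap25, Syt1 and Rbfox3 had 0 or 1 read. The part of these other cells in the reads with unannotated exons was not tested, and fewer cells of a type and less RNA per cell cannot be told apart in whole muscle.

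An internal exon that is present in some transcripts of a gene and absent from others is a cassette exon. Within a coding region, a cassette whose length is a multiple of 3 adds or removes whole codons and keeps the downstream frame, while any other length shifts it. Striated muscle is known for short cassette exons in genes of the sarcomere, the membrane system and cell adhesion, many of which change during growth. The length of an exon alone does not show that it is open, since it may hold a stop codon.

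The places where the leading coding exons entered their genes are shown first, because they fix how each exon meets the reading frame. The exons' own bases were not read here, so each line gives the annotated coding sequence (GENCODE M21, GRCm38) of 30 bases on either side of the junction that the exon interrupts. Capitals mark the codon that the insertion divided after its first base (Mybpc1, Ywhae, Tmem65 and Ppp3cb) or followed directly (the others). The introns are Mybpc1 chr10:88573530-88582006, Ywhae chr11:75759429-75764619, Pde4dip chr3:97690854-97692320, Fermt2 chr14:45462241-45464723, Usp25 chr16:77093743-77107884, Tmem65 chr15:58797246-58822842, Lrrfip2 chr9:111161390-111167199, Pxn chr5:115546949-115551487 and Ppp3cb chr14:20509501-20515522. Ywhae, Usp25, Lrrfip2 and Pxn lie on the plus strand and the other genes on the minus strand.
Mybpc1: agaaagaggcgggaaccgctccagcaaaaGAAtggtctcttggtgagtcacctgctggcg
Ywhae: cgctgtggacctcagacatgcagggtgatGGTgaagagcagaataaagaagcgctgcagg
Pde4dip: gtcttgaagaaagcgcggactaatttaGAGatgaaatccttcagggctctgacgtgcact
Fermt2: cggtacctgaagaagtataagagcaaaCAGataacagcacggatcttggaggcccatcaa
Usp25: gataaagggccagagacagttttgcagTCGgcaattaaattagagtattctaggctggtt
Tmem65: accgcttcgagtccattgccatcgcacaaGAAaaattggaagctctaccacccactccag
Lrrfip2: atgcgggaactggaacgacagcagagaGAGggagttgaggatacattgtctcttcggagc
Pxn: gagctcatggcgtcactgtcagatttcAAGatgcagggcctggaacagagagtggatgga
Ppp3cb: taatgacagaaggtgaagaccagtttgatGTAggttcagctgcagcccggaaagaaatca

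The bases of 40 of the 251 exons could be read, because an annotated transcript of another gene or a promoter window covers them, and 16 of these came with intron bases on both sides. All 16 had AG before the exon and GT after it, the usual bases of a splice acceptor and donor. For 10 of the 16 the start and end are also those of an annotated exon of another gene, and the other 6 have no such record. The lines below show 5 of those 6, with the exon in capitals and 10 intron bases on each side in lower case. The last line gives the annotated Abcd3 exon of the same length for comparison. They are Abcd3 chr3:121787980-121788049, Trip12 chr1:84808957-84809032, Mrpl15 chr1:4778748-4778798 and Mybpc1 chr10:88604611-88604650 on the minus strand, and B4galt7 chr13:55602216-55602377 on the plus strand. The annotated Abcd3 exon is chr3:121786002-121786071.
Abcd3 unannotated exon of 70 bases: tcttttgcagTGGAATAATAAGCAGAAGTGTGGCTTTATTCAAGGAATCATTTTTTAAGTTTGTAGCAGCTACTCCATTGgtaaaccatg
Trip12 exon of 76 bases: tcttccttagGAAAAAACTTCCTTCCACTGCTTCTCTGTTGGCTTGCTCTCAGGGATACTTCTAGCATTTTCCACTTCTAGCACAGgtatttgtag
Mrpl15 exon of 51 bases: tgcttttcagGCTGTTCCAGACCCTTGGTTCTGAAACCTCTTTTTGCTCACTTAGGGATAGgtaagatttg
Mybpc1 exon of 40 bases: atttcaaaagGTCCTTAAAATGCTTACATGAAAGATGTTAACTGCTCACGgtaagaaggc
B4galt7 exon of 162 bases: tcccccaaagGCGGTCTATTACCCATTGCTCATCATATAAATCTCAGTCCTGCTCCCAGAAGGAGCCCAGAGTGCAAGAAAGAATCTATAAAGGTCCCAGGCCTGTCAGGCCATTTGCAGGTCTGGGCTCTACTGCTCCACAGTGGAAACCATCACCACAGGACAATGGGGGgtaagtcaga
Abcd3 annotated exon of 70 bases: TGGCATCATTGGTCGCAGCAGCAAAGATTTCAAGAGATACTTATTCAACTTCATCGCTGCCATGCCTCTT

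Reads were concentrated in few exons. The 251 exons had a median of 8 reads over both libraries: 137 had 5 to 9, 70 had 10 to 19, 37 had 20 to 99 and 7 had 100 or more. The 3 exons with the most reads, a pair in Mybpc1 and 1 in Bin1, held 54.8% of the summed reads, and the leading 15 held 72.9%. The Mybpc1 exons shared most of their reads, and a read with both counts for each in these shares. At the edge of the rule, 36 exons had exactly 5 reads, and 59 exons with reads in both libraries were left out at 4. A further 34 exons had at least 5 reads in replicate 1 and 0 in replicate 2, and 8 showed the reverse. Among the former was a 53-base exon of the splicing regulator Rbfox1, with 21 reads of 40 gene reads in replicate 1. In replicate 2 it had 0 of 11, where a count of 0 allows up to 3 reads. Reads with an intron that spans it numbered 7 in replicate 1 and 2 in replicate 2, too few in replicate 2 to compare the libraries. The same intron chain was read in both libraries for 209 of the 251 exons, and 197 exons stood in at least 2 different chains.

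**Figure D1:**
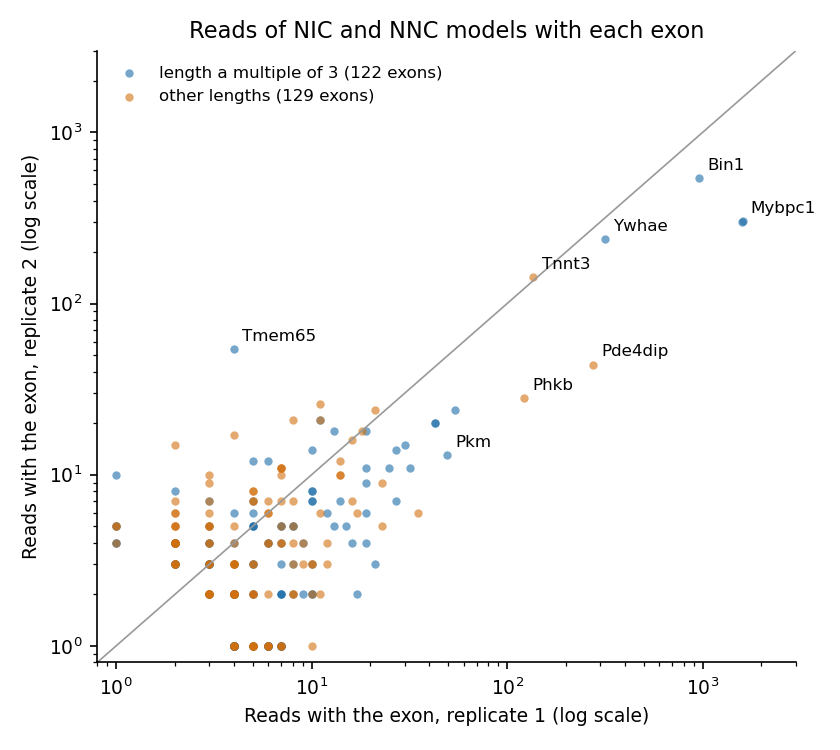
Each point is 1 of the 251 unannotated exons, placed by its reads in NIC and NNC models of replicate 1 and replicate 2 (log axes, with the line of equal reads). The 2 points of Mybpc1 lie on each other at about 1600 and 300 reads, and Tmem65 stands above the line with 4 and 54 reads.

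Inclusion is the share of reads with the exon among informative reads, which either hold the exon or have an intron that spans it. Reads of annotated, incomplete (ISM), NIC and NNC models were counted, and 120 exons had at least 20 informative reads in each library. Most of the 120 were rare: 31 had a mean inclusion under 1%, 70 under 5%, 14 between 5% and 10%, 25 between 10% and 50%, and 11 above 50%. The median was 4.26% in replicate 1 and 3.35% in replicate 2. Because an exon needed 5 reads to be counted, the lowest inclusion it could show fell with the depth of its gene. The 64 exons with fewer than 100 informative reads in a library had a median inclusion of 8.35%, against 1.47% for 39 exons with 100 to 999 and 0.223% for 17 exons with 1000 or more. The other 131 exons had fewer informative reads than 20 in at least 1 library, and their inclusion is not summarised.

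The exon pair with the most reads lay in Mybpc1, which encodes the slow isoform of myosin-binding protein C, a thick-filament protein of the sarcomere. Exons of 39 bases (chr10:88575842-88575880) and 36 bases (chr10:88575129-88575164) stood side by side in the third intron of an annotated transcript. The 36-base exon was in 1630 reads and skipped by 763 in replicate 1 (68.1%, 95% Wilson interval 66.2 to 70.0), and was in 307 and skipped by 181 in replicate 2 (62.9%, 58.5 to 67.1). The 39-base exon gave 68.3% and 62.7%. Of the reads that covered both places, 1922 held both exons, 8 held the upstream 39-base exon alone, 0 held the downstream exon alone and 936 held neither. The pair was thus read as 1 unit of 75 bases, a multiple of 3, placed after the first base of a codon. A form of 37 bases with another acceptor site replaced the 39-base exon in 10 and 3 reads. Far upstream in the same gene, the 40-base exon printed above was in 5 and 2 reads, with 2383 and 485 that skipped it.

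Bin1 (amphiphysin 2), a protein that bends membranes and takes part in forming the T-tubules of muscle, carried a 45-base exon on chromosome 18 that was close to constitutive. It was in 979 reads and skipped by 20 in replicate 1 (98.0%, 96.9 to 98.7), and in 547 and skipped by 16 in replicate 2 (97.2%, 95.4 to 98.2). No annotated transcript of the gene held an exon there.

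Ywhae encodes 14-3-3 epsilon, an adaptor that binds phosphorylated proteins. Its 45-base exon (chr11:75762698-75762742) was in 323 reads and skipped by 106 in replicate 1 (75.3%, 71.0 to 79.1), and in 241 and skipped by 106 in replicate 2 (69.5%, 64.4 to 74.1). It lay in the last of 5 introns, within the coding region.

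Pde4dip (myomegalin) anchors cyclic AMP signalling proteins at the Golgi, the centrosome and the sarcomere. An exon of 61 bases (chr3:97691485-97691545) in its last coding intron was in 501 and 101 reads and skipped by 256 and 64, an inclusion of 66.2% and 61.2%. With Phkb it was 1 of the 2 exons above 50% whose length was not a multiple of 3. It followed a complete codon and shifted the frame of the last exon, which has 1030 bases.

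Phkb encodes a regulatory subunit of phosphorylase kinase, the enzyme that switches on glycogen breakdown. Its unannotated exon of 91 bases (chr8:86025198-86025288) stood in place of an annotated exon of the same length (chr8:86026457-86026547). In replicate 1, 127 reads held the unannotated exon and 8 the annotated one, and in replicate 2 the counts were 30 and 3. No read held both and none held neither, so each of 168 reads used 1 of the 2. The net change in length was 0.

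A pair of neighbouring exons of Usp25, a protease that removes ubiquitin, were always read together. The exons of 114 bases (chr16:77097649-77097762) and 96 bases (chr16:77099651-77099746) were in 69 reads and skipped by 5 in replicate 1 (93.2%, 85.1 to 97.1), and in 28 and skipped by 5 in replicate 2 (84.8%, 69.1 to 93.3). Over both libraries 97 reads held both, 10 held neither and 0 held 1 alone. Together they added 210 bases.

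Fermt2 encodes kindlin-2, which activates integrins at sites of adhesion. Its 21-base exon (chr14:45462715-45462735) was in 66 and 32 reads and skipped by 39 and 22 (62.9% and 59.3%). An exon of 24 bases lay upstream of it in the same intron and was in 17 and 7 reads (16.2% and 13.0%). All 24 reads with the 24-base exon also held the 21-base exon, 74 reads held the 21-base exon alone and 61 held neither. Both lengths are multiples of 3.

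In Tmem65, which encodes a membrane protein, an 81-base exon (chr15:58807078-58807158) lay in the first intron, of 25597 bases. NIC and NNC models gave it 4 reads in replicate 1 and 54 in replicate 2. With incomplete models counted, it was in 193 and 54 reads and skipped by 105 and 31, an inclusion of 64.8% (59.2 to 70.0) and 63.5% (52.9 to 73.0). Without the incomplete models the values were 3.67% and 63.5%. It was the only one of the 251 exons with more of its reads in incomplete models than in NIC and NNC models.

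Other exons also had high or middle inclusion. Lrrfip2 had exons of 54 and 57 bases in 1 intron, with 48 reads that held both, 3 with the 54-base exon alone, 0 with the 57-base exon alone and 8 with neither. Ppp3cb, a catalytic subunit of the calcium-dependent phosphatase calcineurin, had a 27-base exon in 29 reads with 5 that skipped it in replicate 1, and in 9 with 5 in replicate 2. The depth of replicate 2 was under 20 informative reads for both genes. Ccpg1, a receptor for autophagy of the endoplasmic reticulum, had a 27-base exon in 23 reads with 25 that skipped it, and in 4 with 12. Its depth in replicate 2 was also under 20 informative reads. In Pxn, which encodes the focal adhesion protein paxillin, exons of 267 and 393 bases, the latter the longest of the 251, were included at 48.8% and 41.4%, and at 43.5% and 41.4%. Both were in 42 reads, 1 alone in 9 and 4, and neither in 56. In their chain with the most reads (18 and 10) an exon of 831 bases came before them, and these 3 exons had 1491 bases together. Gm3448, a predicted protein-coding gene, had a 111-base exon (chr17:15019849-15019959) in 19 and 18 reads, skipped by 3 in each library (86.4%, 66.7 to 95.3, and 85.7%, 65.4 to 95.0). No annotated transcript held both sites beside it, so its frame was not read.

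**Figure D2:**
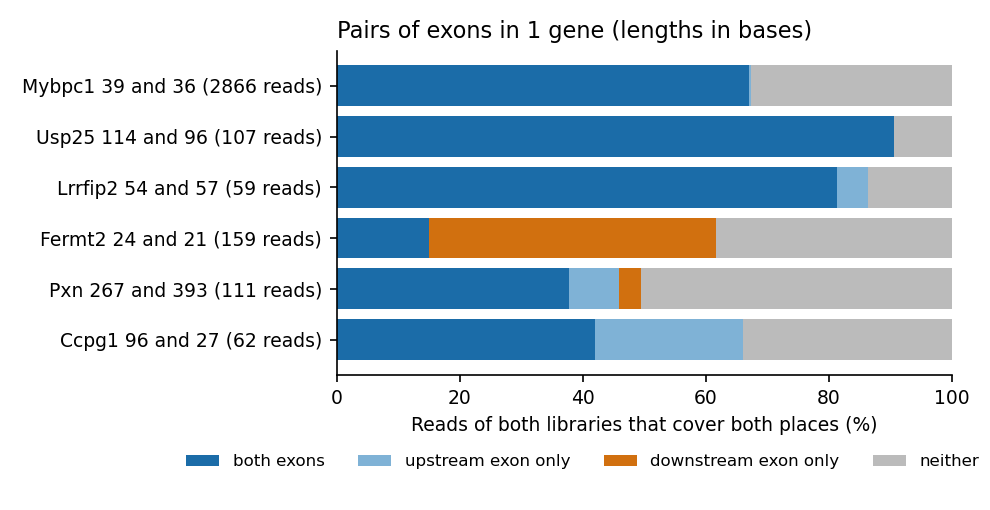
For each pair of unannotated exons in 1 gene, the bar divides the reads of both libraries that cover both places (number in brackets) by whether they hold both exons, 1 of them or neither, with the upstream exon named first. Mybpc1 and Usp25 reads held both exons or neither almost throughout, while the 21-base exon of Fermt2 was also read without its neighbour in 74 reads.

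**Figure D3:**
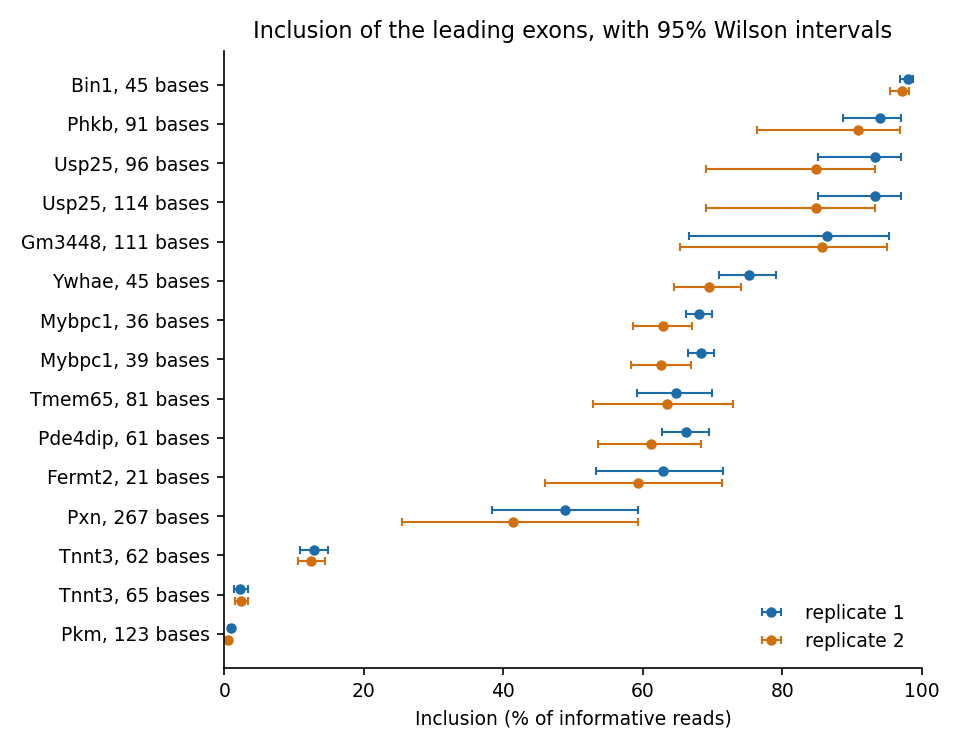
Inclusion in each library of the 15 exons with at least 20 informative reads per library that were among the leading 15 by reads or the leading 10 by inclusion, with 95% Wilson intervals for counting error. The intervals of the 2 libraries overlap for each exon.

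For 9 exons, the annotated sites on either side enclose 1 annotated exon of the gene, and 3 of the 9 had the length of that exon: besides Phkb these were Abcd3, a peroxisomal transporter, and Col5a1, a chain of type V collagen. In Abcd3, 33 reads of replicate 1 held the unannotated exon alone, 26 the annotated exon alone, 2 both and 1 neither, and in replicate 2 the counts were 6, 5, 0 and 0. The 2 Abcd3 exons had the same base at 36 of 70 positions (51.4%), and no stop codon stood in frame from the unannotated exon to the annotated stop codon. In Col5a1 the unannotated 69-base exon was in 8 and 1 reads and the annotated one in 110 and 56, with no read that held both or neither. In Entpd4, a further 1 of the 9, 255 reads that covered both places held the annotated exon alone and 0 the unannotated one. The 6 reads with its unannotated exon were not among the reads so counted.

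Tnnt3, the fast troponin T gene, held 9 of the exons, more than any other gene, and 6 of them overlapped one another. The leading one, of 62 bases (chr7:142505999-142506060), was in 137 reads and skipped by 933 in replicate 1 (12.8%, 10.9 to 14.9), and in 142 and skipped by 1000 in replicate 2 (12.4%, 10.6 to 14.5). In its chain with the most reads it followed a 39-base exon, and these 2 exons had 101 bases together. The 5 annotated exons in their place also have 101 bases, so the net change in length was 0. By position, the 39-base exon holds the whole first of these 5, which has 35 bases and the same start (142501620), and ends further downstream (142501658 against 142501654). Whether the other bases are the same was not tested. The next, of 65 bases (chr7:142505937-142506001), gave 2.2% and 2.3% (21 and 24 reads). The other 7 had 5 to 13 reads each. All 9 lay among the short first exons of the gene, between annotated sites on either side of the start codon. The 3 that did not overlap the 62-base exon (64, 73 and 56 bases) were never in a read with it.

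Rare exons were read in untranslated first introns, also of abundant muscle genes. Ckm, the muscle creatine kinase, had exons of 125 and 142 bases there, in 18 and 18 reads and in 5 and 8 reads, against 72953 and 62189 reads that skipped the former. Pkm, which encodes pyruvate kinase, had an exon of 123 bases (chr9:59661553-59661675) in 49 and 13 reads, skipped by 5383 and 2599 (0.90% and 0.50%). Pcbp4, an RNA-binding protein gene with 88 and 61 spliced reads, had in its first intron a 114-base exon in 4 and 1 reads (5.1% and 1.8%). Coding introns of abundant genes had rare exons too. Atp2a1, the calcium pump of fast fibres, had a 302-base exon in 26 and 5 reads, skipped by 5166 and 2815 (0.50% and 0.18%). A form of 276 bases in the same place was in 8 and 2 reads and skipped by 142617 and 38815. Thus most reads without the 302-base exon were not counted as skipping it. The gene had 144312 and 39557 spliced reads. Myl1, a fast essential myosin light chain, had a 28-base exon in 3 and 10 reads, against 15176 and 20372 that skipped it (0.020% and 0.049%). The ubiquitin-conjugating enzyme gene Ube2g1 had a 38-base exon in the 3′ untranslated region, in 14 and 10 reads (12.6% and 15.6%). Usp13, another deubiquitinating enzyme gene, had a 108-base exon in 5 and 1 reads (2.6% and 1.2%). Ank2, the gene of ankyrin-B, had exons of 93 and 54 bases in 6 and 2 and in 4 and 1 reads, with too few reads for an inclusion. The shortest of all was an exon of 2 bases in the tRNA exporter gene Xpot, in 6 and 1 reads and skipped by 12 and 3. Annotated internal exons with the same minimum of reads had at least 12 bases. Whether the 2 bases were placed rightly was not tested.

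The values of the libraries are set side by side as a description, since the rule asked for a read in each and so left out the 42 exons read at least 5 times in 1 library alone. Across the 120 exons the median absolute difference was 1.31 percentage points and the largest was 14.1, for a 140-base exon of Dstn with 20.5% and 6.5% (8 and 2 reads). Of the 120, 64 had the higher value in replicate 1 and 56 in the other library, and all 120 pairs of Wilson intervals overlapped. Pearson's r across the exons was 0.991, and 0.95 on the log2 scale, with n = 120 exons that share the same 2 libraries. Fisher's exact test was run on reads with and without each of 7066 internal exons of annotated genes, with Benjamini-Hochberg adjustment over all of them. It called 0 of the 120 unannotated exons at an adjusted p under 0.05 and a difference of at least 10 points (0%), where 0.0708% of all exons tested (5 of 7066) and 0.0383% of annotated exons (2 of 5224) were called. At an unadjusted p under 0.05 there were 5, and the smallest was p = 0.0168 (two-sided Fisher's exact test, adjusted p = 0.983) for the 39-base exon of Mybpc1. The test used the same reads as the rule, and exons read in 1 library alone could not be among the 120, so the 0 is no sign of agreement. It compares the reads of these 2 libraries and says nothing of conditions. With incomplete models left out, 1 of 118 exons was called, beside 0.181% of all exons tested at that setting (12 of 6633). It was the Tmem65 exon above (adjusted p = 7.24e-18, Fisher's exact test).

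**Figure D4:**
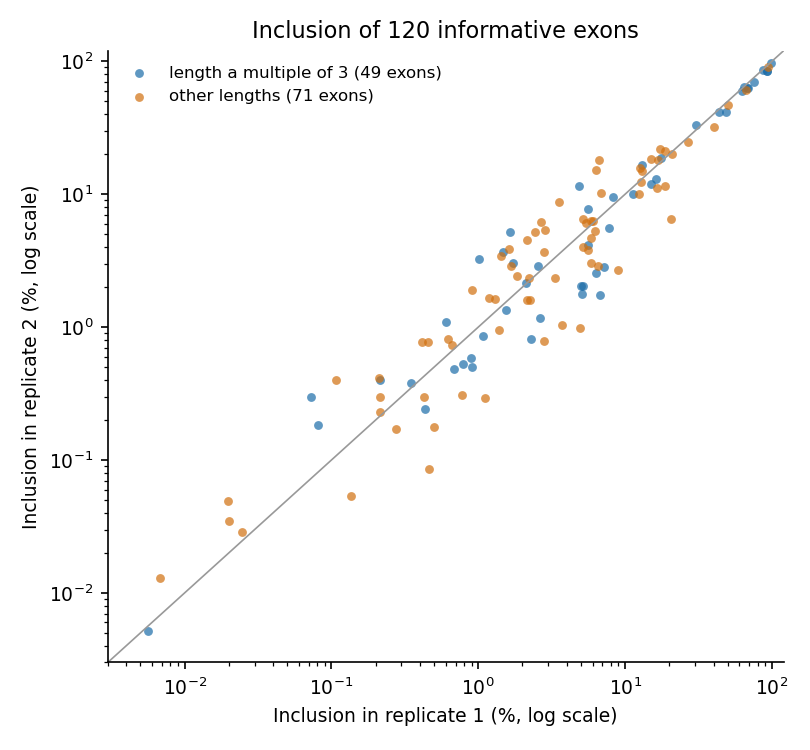
Inclusion of the 120 informative exons in replicate 1 and replicate 2, on log axes with the line of equal inclusion, coloured by whether the length is a multiple of 3 (49 exons) or not (71 exons). On these axes the points spread on both sides of the line, and the largest difference in points is that of Dstn (20.5% and 6.5%).

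The exons were short. Their median length was 84 bases (quartiles 56 and 125.5, range 2 to 393), against 118 bases for 77697 annotated internal exons with the same minimum of reads. Annotated exons with an inclusion of 10% to 90% in both libraries had a median of 90 bases (n = 456). Of the 251, 9 exons (3.59%) had 30 bases or fewer, against 0.664% of the annotated exons, 5.48% of those with an inclusion of 10% to 90% and 4.55% of the 396 under 10%. The 44 exons with at least 20 reads had a median of 69.5 bases.

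A length that is a multiple of 3 was found for 122 of 251 exons (48.6%, 95% Wilson interval 42.5 to 54.8). Of 123 exons inserted into an annotated intron inside a coding region, 74 kept the frame by length (60.2%, 51.3 to 68.4), and of 36 in 5′ untranslated regions 12 did (33.3%, 20.2 to 49.7), and these intervals do not overlap. Among the coding insertions, 22 of 27 with at least 20 reads were multiples of 3 (81.5%, 63.3 to 91.8), as were 18 of 31 with 10 to 19 reads (58.1%, 40.8 to 73.6) and 34 of 65 with 5 to 9 reads (52.3%, 40.4 to 64.0). The intervals of the first and the last of these just overlap, and no test was made, since the members were chosen by reads. All these intervals count each exon as independent. Neighbouring exons such as the pairs of Mybpc1, Usp25 and Lrrfip2 were mostly read together, so the intervals may be too narrow. For comparison, 39.9% of 73334 wholly coding annotated exons, 74.4% of the 336 with 10% to 90% inclusion (69.5 to 78.8) and 63.1% of the 103 under 10% (53.5 to 71.8) were multiples of 3. By inclusion, 16 of 22 informative coding insertions at 10% or more (72.7%, 51.8 to 86.8) and 23 of 55 below 10% (41.8%, 29.7 to 55.0) kept the frame. Counting whole blocks and any annotated exon replaced, the net change was a multiple of 3 for 79 of 131 coding exons (60.3%, 51.7 to 68.3). The insertion fell between codons for 63 of the 123, after the first base of a codon for 46 and after the second for 14.

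**Figure D5:**
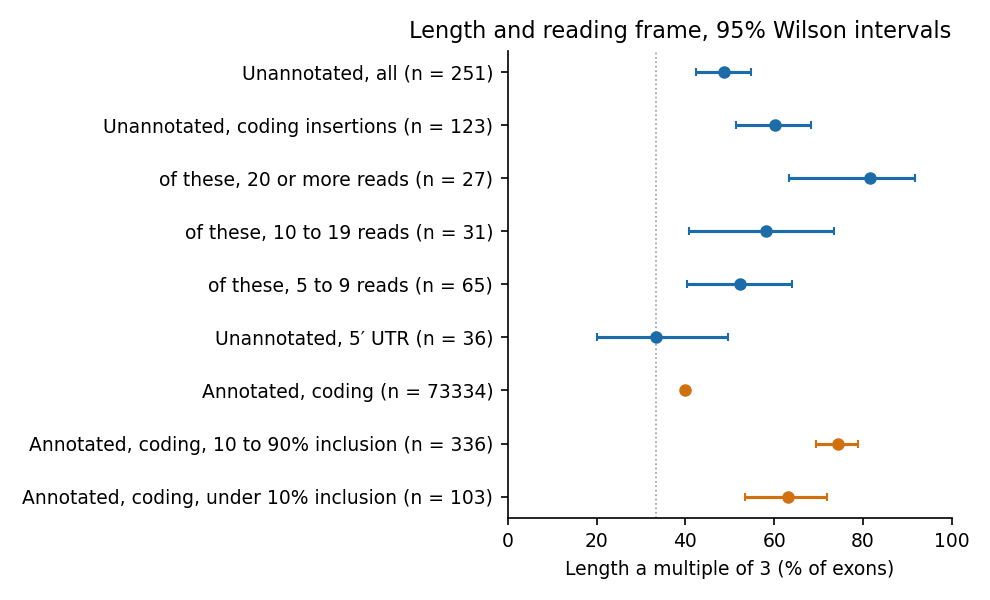
Share of exons whose length is a multiple of 3, with 95% Wilson intervals, for unannotated exons (blue) by place and reads and for annotated coding exons (orange) by inclusion. The dotted line marks the share if each remainder were equally common. Coding insertions with at least 20 reads lie at 81.5%, near the annotated coding exons of 10% to 90% inclusion (74.4%), while exons in 5′ untranslated regions lie at 33.3%.

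For the 5 printed exons the frame could be read base by base. The exons of Abcd3 and B4galt7 held no stop codon in frame and the frame ran on to the annotated stop. The Mrpl15 exon of 51 bases, a multiple of 3, held 3 stop codons in frame, the first at base 22 of the exon. The exons of Mybpc1 (40 bases) and Trip12 (76 bases) each held 1, starting at base 6 and base 53. B4galt7 encodes an enzyme of proteoglycan synthesis, Mrpl15 a protein of the mitochondrial ribosome and Trip12 a ubiquitin ligase, and their exons had 7 reads each.

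In position, 193 of the 251 exons lay inside the annotated limits of their gene, 38 on an exon of another gene on the same strand and 20 outside the limits. An annotated intron enclosed 166 exons, 146 of them alone, and 18 lay between sites that enclose annotated exons. For 67 no annotated transcript held both flanking sites. The introns that took the 166 exons had a median length of 5903.5 bases, against 1742.5 bases over the 1648 introns of the same 146 transcripts. The first intron took 61 of the 166 (36.7%), while first introns made up 8.86% of those introns by number. Their share of the intron bases was not measured. Of these 61, 30 lay in 5′ untranslated regions, 26 in coding regions and 5 in noncoding transcripts.

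The 38 exons on another gene's exon came from 15 genes, and 34 of them had exactly the other gene's start and end. In the genes with the most of them, models assigned to 1 gene joined its exons to those of another. Clk2, a kinase of splicing factors, held 8 such exons, at exons of Scamp3, with 5 to 11 reads each. Osbpl2, an oxysterol-binding protein gene, held 8 at exons of Adrm1, a ubiquitin receptor of the proteasome, each with 2 and 4 reads. Rrn3, an initiation factor of RNA polymerase I, held 7 at exons of Ntan1 with 5 to 8 reads each. The lincRNA gene A430046D13Rik held 4 exons, 3 of them beyond its annotated limits. Few reads skipped these exons, from 0 to 3 in each library for the 23 exons of Clk2, Osbpl2 and Rrn3, so their inclusion has no meaning as a cassette. The longest exons after that of Pxn were 1 of 348 bases in Tmem147os and 302-base exons in Atp2a1 and 2310016D23Rik. Of all 251 exons, 12 overlapped an annotated exon on the opposite strand.

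Host genes were mostly protein coding: 228 of the 251 exons lay in 170 such genes. Host genes had a median of 90.5 spliced reads over both libraries, against 31 for annotated genes with at least 5. Of 1563 genes with at least 50 spliced reads in each library, 71 (4.54%) held an unannotated exon. By gene list, 6 of 47 such genes of the sarcomere and Z-disc held one (Actc1, Mybpc1, Myh1, Myl1, Myom2 and Tnnt3, with 18 exons). That of Myh1 lay on a coding exon of Myh2 on the same strand, and 9 of the 18 were those of Tnnt3. Of 24 genes of excitation and calcium release, 8 held one: Atp2a1, Bin1, Jsrp1, Orai1, Pvalb, Srl, Sypl2 and Tmem38a. The counts were 2 of 21 for glycolysis and glycogen, 4 of 88 for mitochondrial energy supply, 1 of 18 for splicing regulators, 2 of 55 for ubiquitin, proteasome and autophagy and 1 of 15 for the matrix. They were 0 of 92 for translation and the ribosome, 0 of 11 for the sarcolemma and 0 of 9 for transcription factors. Within the calcium list, Bin1 apart, no exon had an inclusion above 5.2% in a library. A 135-base exon of the triad protein gene Jsrp1 was in 5 and 12 reads (1.6% and 5.2%), and that of Orai1 gave 2.4% and 5.2%. In the mitochondrial list no exon passed 1%, and the exons of Atp5o, Mfn2 and Ndufv2 had 5, 8 and 10 reads.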

How the data were processed

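Long-read RNA-seq of 2 gastrocnemius libraries was analysed. The authors deposited whole-number read counts per transcript model, with models and their classes in annotation files on mm10, per the labels and the file headers (TALON attributes). No source used here names the aligner, its settings or the model filters, on which exon limits depend. Of 141958 Known transcripts, 141862 matched GENCODE M21 in identifier and exons, and 96 identifiers were absent from it. Exons were identified by exact start and end. Reads were tested with Fisher's exact test (SciPy 1.17.1, Python 3.11.15), after tests on simulated data. The 95% Wilson intervals and the floor of 3 reads cover counting error only. No read was filtered or rescaled except for CPM, set on 1248854 and 1106450 reads of annotated genes. The members, gene lists and tests were chosen with earlier results of these data known. Exons were named by rank in reads (15), inclusion (10), length (6 shortest, 3 longest), gene list (2 each) and genes with the most exons (5). Those of Abcd3, Entpd4, Trip12, Mrpl15, B4galt7, Rbfox1, Dstn, Jsrp1, Orai1, Lrrfip2 (57 bases) and the 37- and 40-base exons of Mybpc1, and genes listed for their group, were named after their values were seen.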

Additional observations from a re-analysis of the deposited data

How the results depend on the processing

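Of 39 alternatives to 6 results, 26 left the value near that reported. The number of exons, 251, became 114 with 10 pooled reads, 44 with 20 and 578 with 2, and 106 without replicate 1 and 178 without replicate 2. Median length moved from 84 to 69.5 bases, and the share with a multiple of 3 from 48.6% to 59.1%, with 20 pooled reads. Median inclusion, 3.71%, became 6.05% with 10 informative reads in each library and 10.5% with 20 pooled, and 3.82% without replicate 1 and 5.88% without replicate 2, where other exons qualify. The 11 exons above 50% inclusion became 23, 28, 13 and 20 under the same settings. The count of exons that differed between libraries went from 0 to 1 without incomplete models, the Tmem65 exon, while over all exons tested it went from 5 of 7066 to 12 of 6633. No paired analysis was possible because there was 1 group.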
